A study of Mus musculus with 6 samples.

Results

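The genes described here are 46 genes of the cell cycle and of DNA replication, 16 that act in S phase and 30 that act in mitosis or its control. They were taken as a list of gene symbols, and a gene counted as measured when the probe annotation named a probe for it with a detection p under 0.05 on at least 3 of 6 arrays. That left 37 of the 46 genes, all 16 of S phase and 21 of the 30 of mitosis, among 9370 genes measured in all. Gene expression was profiled on Illumina bead arrays in 2 populations of mouse dendritic cells, the antigen-presenting cells that prime T cells. The groups were MR-positive cells and MR-negative cells, told apart in a flow cytometric sort by Alexa647-labeled OVA (ovalbumin), a ligand of the mannose receptor (MR). Both came from bone marrow cultured for 1 week with GM-CSF and both had met the labelled protein, with 3 arrays of each population. The sources used here give neither strain nor age of the mice. The arrays carry the title numbers M1, M2 and M3 in each population, and no label says whether a number is a mouse, a culture or a day. The p-values therefore speak only of the spread among these samples, and that spread may be technical.

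Dividing cells copy their DNA in S phase and part the copies in mitosis, and each task has its own wave of transcripts. S phase genes, among them the helicase subunits Mcm2 to Mcm7 and the enzymes that make nucleotides, are transcribed around the G1/S boundary under E2F factors. Mitotic genes, among them the kinases Cdk1, Plk1 and Aurkb, peak later, under the MuvB complex with B-MYB and FOXM1, which acts through CHR elements often paired with a CCAAT box. In marrow cultures with GM-CSF, dendritic cells arise from dividing progenitors and leave the cycle as they mature. Arrays of bulk RNA measure the mean over all sorted cells, so fewer cycling cells and less of these transcripts per cell cannot be told apart.

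Levels are log2 intensities after background correction and quantile normalization, and a difference is the MR-positive minus the MR-negative mean on that scale. Each array detected 15988 to 16641 of 45281 probes (35.3% to 36.8%). The number of arrays, 3 of each population, limits the precision of every difference. Mrc1, the gene of the mannose receptor, checked the labels with a difference of 2.64 ± 0.39 (SE, limma adjusted p = 0.0051). Of all 9370 genes, 15.3% passed an adjusted p of 0.05 (8.19% higher and 7.13% lower in MR-positive cells), and with the title number as a block 30% passed (16.4% higher and 13.6% lower). Over all probes these shares were 13.8% without and 27.7% with the block. The median difference over all genes was 0.02. Of 10 dendritic cell markers all were measured, although Zbtb46 and Dpp4 were detected on none of the MR-positive arrays. With the population alone in the model, 8 of those markers fell in MR-positive cells and 1, Itgax, rose. Zbtb46 and Dpp4 are among the 8. They met the filter through the MR-negative arrays alone, so the size of their differences is uncertain.

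The 9 members that were not measured are all mitotic. The annotation named no probe for Mki67, the proliferation antigen Ki-67, or for Ccnb1, cyclin B1. Probes of Ccna2 and Ccnb2, which encode cyclins, of Cks1b, a cyclin-dependent kinase subunit, of the checkpoint kinases Bub1 and Ttk, of Ube2c, a ubiquitin-conjugating enzyme of the anaphase-promoting complex, and of the kinesin Kif20a were detected on 0 of 6 arrays. None of these probes was detected on 1 or 2 arrays, so no member lay just outside the threshold. The Ube2c probe, as an example, lay between 4.15 and 4.47 on all 6 arrays. Just inside the threshold was Kif2c, a kinesin that takes microtubules apart, which was detected on 3 arrays with levels of 6.54, 4.34 and 4.71 on the MR-positive arrays, against 6.64, 4.24 and 4.48 on the MR-negative arrays (M1, M2 and M3 in that order, as throughout). Of the 37 measured members, 29 were detected on all 6 arrays. The arrays of M1, M2 and M3 detected 37, 31 and 36 members in MR-positive cells, and the same numbers in MR-negative cells.

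Promoters of the members were searched for the elements that the S phase and mitotic waves are known for, because the contrast between both classes runs through the results. RefSeq promoters of build GRCm38.p6, each 250 bases before to 50 after a gene's start, were given for 15 of 16 S phase and 24 of 30 mitotic members. An E2F core (on either strand TTGGCGC or its variants with other middle letters, which are TTCCCGC and then TTCGCGC and finally TTGCCGC) was found in 10 of 15 S phase promoters (66.7%), in 3 of 24 mitotic promoters (12.5%) and in 10.9% of the promoters of 27025 genes. A CHR element (TTTGAA or TTTAAA on either strand) was found in 7 of 15 S phase promoters (46.7%) and 22 of 24 mitotic promoters (91.7%), against 30.6% of all. CCAAT on either strand was in 11 of 15 (73.3%) and 21 of 24 (87.5%), against 41.1% of all. A CHR element together with CCAAT was in 5 of 15 S phase promoters (33.3%), 20 of 24 mitotic promoters (83.3%) and 13.4% of all. Motifs as short as these match often by their letters alone, and a match is a description, not a binding site. Shown next are the S phase helicase genes Mcm5 and Mcm6 and the mitotic genes Top2a and Cdk1, the members with most matches among those whose values are given on every array. Sequences run 5′ to 3′ along the gene's strand, and capitals mark matches to any of the motifs, which overlap in runs such as TTCGCGCCAA.
Mcm5, chr8:75109259-75109558, plus strand: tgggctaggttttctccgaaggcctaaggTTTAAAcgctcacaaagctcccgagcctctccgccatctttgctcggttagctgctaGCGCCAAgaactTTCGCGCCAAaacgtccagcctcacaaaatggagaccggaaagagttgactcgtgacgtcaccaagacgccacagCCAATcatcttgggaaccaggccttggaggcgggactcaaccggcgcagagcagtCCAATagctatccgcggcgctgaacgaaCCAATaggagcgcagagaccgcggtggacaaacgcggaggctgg
Mcm6, chr1:128359656-128359955, minus strand: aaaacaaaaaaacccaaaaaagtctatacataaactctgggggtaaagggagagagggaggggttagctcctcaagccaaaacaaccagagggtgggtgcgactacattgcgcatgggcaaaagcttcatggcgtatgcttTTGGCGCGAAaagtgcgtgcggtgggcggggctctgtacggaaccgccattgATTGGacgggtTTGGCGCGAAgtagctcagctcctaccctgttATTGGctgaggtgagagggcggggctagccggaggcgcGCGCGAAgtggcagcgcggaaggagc
Top2a, chr11:99024140-99024439, minus strand: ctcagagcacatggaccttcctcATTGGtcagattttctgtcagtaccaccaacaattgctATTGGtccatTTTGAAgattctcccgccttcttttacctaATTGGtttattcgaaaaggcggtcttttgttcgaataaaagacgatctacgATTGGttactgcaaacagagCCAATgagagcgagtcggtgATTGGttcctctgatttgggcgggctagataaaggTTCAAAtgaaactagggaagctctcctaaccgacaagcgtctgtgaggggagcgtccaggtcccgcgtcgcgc
Cdk1, chr10:69352863-69353162, minus strand: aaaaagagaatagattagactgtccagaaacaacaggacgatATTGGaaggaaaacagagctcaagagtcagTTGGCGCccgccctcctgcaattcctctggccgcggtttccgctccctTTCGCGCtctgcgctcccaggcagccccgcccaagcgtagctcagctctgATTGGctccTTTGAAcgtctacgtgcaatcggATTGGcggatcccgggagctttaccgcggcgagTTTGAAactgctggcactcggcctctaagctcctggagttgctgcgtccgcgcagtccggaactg
The Mcm5 promoter held 3 E2F cores, 1 CHR and 3 CCAAT matches, and that of Mcm6 held 5 E2F cores, 0 CHR and 2 CCAAT matches. Top2a had 0 E2F cores with 2 CHR and 6 CCAAT matches, whereas Cdk1 had 2, 2 and 3.

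**Figure D1:**
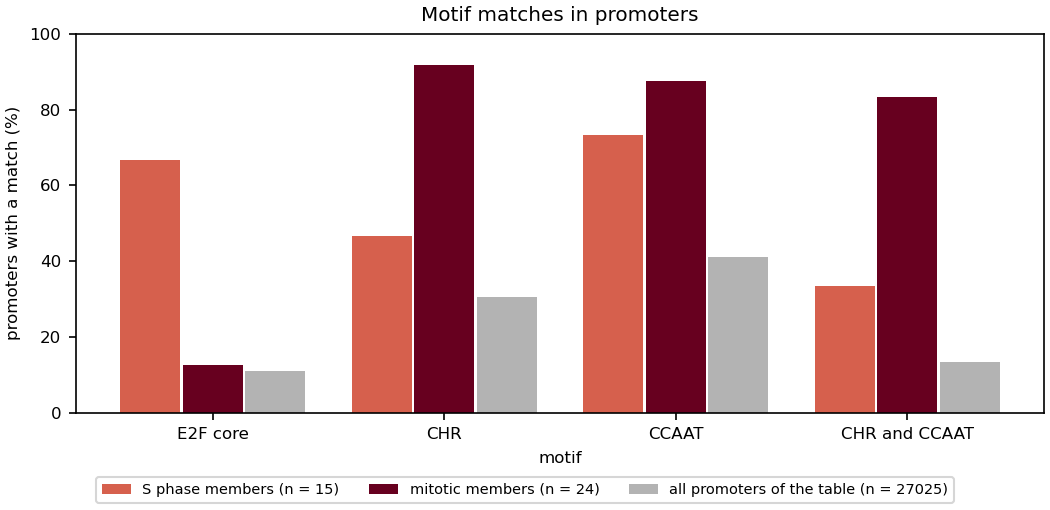
Share of promoters (%) with a match to each motif (x axis), with a bar for the S phase members, the mitotic members and all genes with a RefSeq promoter. E2F cores are in 66.7% of S phase and 12.5% of mitotic promoters, and CHR with CCAAT is in 33.3% and 83.3%.

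The cell cycle genes differed far more between the title numbers than between the populations. On the M1 arrays they were high in MR-positive and in MR-negative cells alike, on M2 low, and on M3 mostly in between. A test of the title numbers, with the population in the model and chosen after the values had been seen, called 35 of 37 members (limma's moderated F test, adjusted over all probes), against 12.1% of all genes. All 35 had their highest mean in M1, which holds for 6.55% of all genes as a call. The M1 array was the highest of its population in both populations for 35 of 37 members (26.5% of all genes), and both M1 arrays stood above the other 4 for 34 of 37 (14.3%). Without the M1 array of MR-negative cells the test called 24 members, against 1.69% of all genes, and without the M1 array of MR-positive cells 33. Without any detection filter it called 0 of 44 members and 0 of 19057 genes, where 37 members and 3835 genes had an unadjusted p under 0.05.

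**Figure D2:**
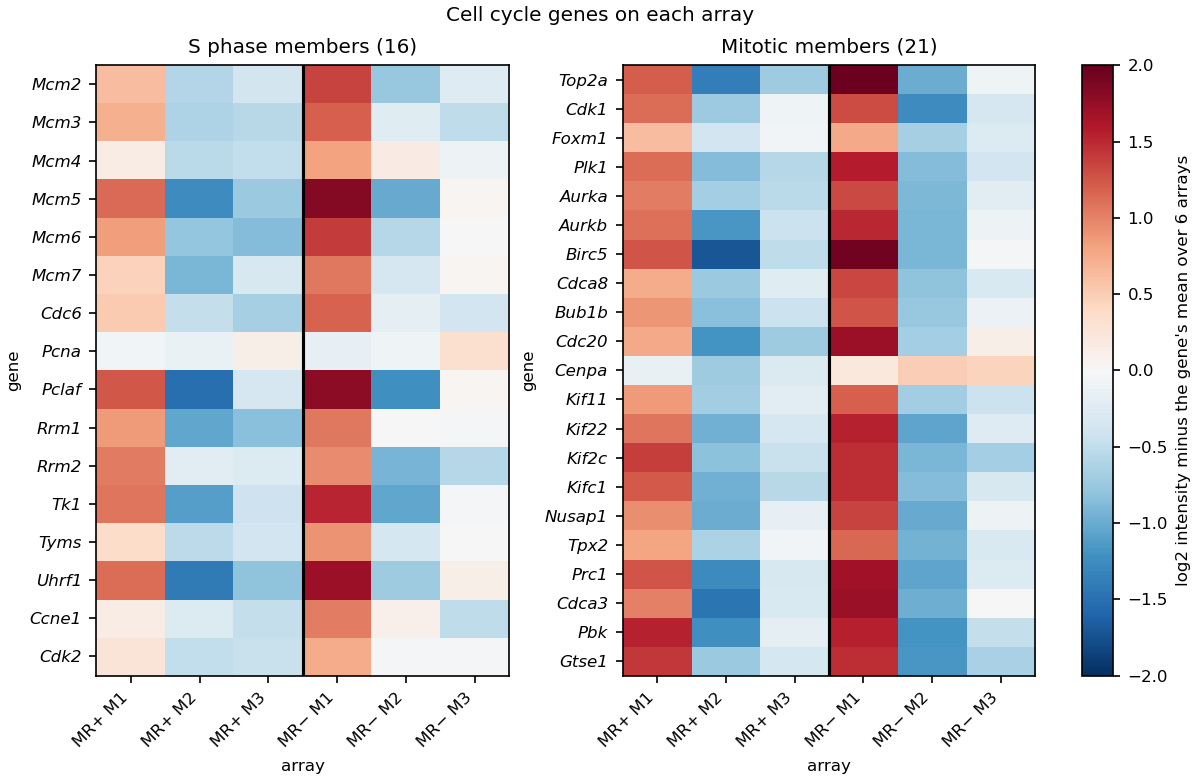
Log2 intensity minus the gene's own mean over the 6 arrays (colour) for each S phase and mitotic member (rows) on each array (columns), MR-positive arrays left and MR-negative arrays right. The M1 column is the highest of its population for 35 of 37 members in both populations.

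Birc5, which encodes survivin of the chromosomal passenger complex, had the widest range between title numbers of all 9370 genes. Its levels were 8.72, 5.75 and 6.95 on the MR-positive arrays, against 9.38, 6.54 and 7.42 on the MR-negative arrays, so that every M1 value lay above every M2 and M3 value. Averaged over both populations the Birc5 means were 9.05 for M1, 6.15 for M2 and 7.18 for M3, a 7.50-fold range (adjusted p = 0.0011). The widest ranges after it were those of Pclaf, a partner of the replication clamp (7.35-fold), Top2a, the topoisomerase that untangles replicated chromosomes (6.86-fold), and Pbk, a mitotic kinase (6.74-fold). Of the 20 genes with the widest ranges 13 were members, 4 of S phase and 9 of mitosis, and of the widest 100 there were 25, 6 and 19. The range between title numbers exceeded the difference between populations for 36 of 37 members, and for 58.1% of all genes.

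The distance of M1 had a smaller median over the S phase than over the mitotic members. M1 exceeded the mean of M2 and M3 by a median log2 of 1.44 (2.71-fold) over the 16 S phase members and of 1.96 (3.89-fold) over the 21 mitotic members, with -0.01 over all genes. The difference between both classes was not tested. The order M1, M3, M2 from high to low held in both populations for 20 of 21 mitotic but 8 of 16 S phase members, against 10.1% of all genes. For several S phase members M2 and M3 lay close together: Mcm3, a helicase subunit, had levels of 6.07, 4.74 and 4.81 on the MR-positive arrays, against 6.56, 5.11 and 4.85 on the MR-negative arrays. There the M1 arrays were high and the other 4 lay between 4.74 and 5.11.

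Pcna and Cenpa were the members that the test of title numbers did not call. Pcna, the sliding clamp of DNA polymerases, had levels of 5.89, 5.80 and 6.05 on the MR-positive arrays, against 5.76, 5.85 and 6.26 on the MR-negative arrays (adjusted p = 0.22). The populations overlapped and M3 was the highest number in both. Cenpa, the histone variant of centromeres, averaged 11.51 for M1, 11.37 for M2 and 11.56 for M3 (adjusted p = 0.78), with M1 the highest in MR-positive cells but the lowest in MR-negative cells. At the other end, Mcm4 and Cdk2 were called with smaller ranges, 1.71-fold and 1.70-fold (adjusted p = 0.025 and 0.016).

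**Figure D3:**
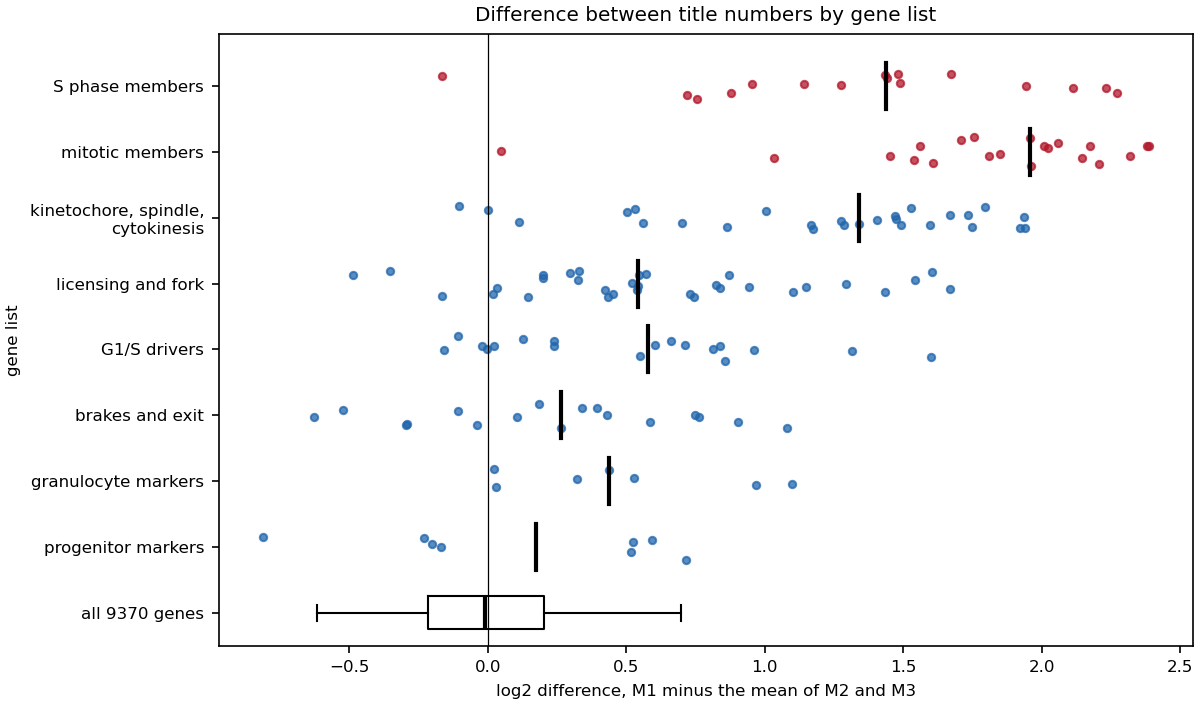
Log2 difference of the M1 arrays from the mean of the M2 and M3 arrays, over both populations, for the genes of each list (rows; points are genes and black bars medians; the box of all genes spans the quartiles, its whiskers percentiles 5 to 95). The medians are 1.44 for S phase members, 1.96 for mitotic members and -0.01 for all 9370 genes.

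Wider lists of cell cycle genes followed the members in part, where 12.1% of all genes were called, 6.55% with M1 highest, and the median over all genes was -0.01. Of 27 measured genes of the kinetochore, spindle and cytokinesis, 21 differed between title numbers with M1 highest, and the list's median was 1.34. Of 32 genes of replication licensing and the fork 14 did (median 0.54), and of 18 drivers of the G1/S step 7 did (0.58). Among 17 genes that brake the cycle or mark exit from it, 3 did (0.26). Marker genes of other cells were set beside these values. Of 7 measured granulocyte markers 3 differed with M1 highest (median 0.44), and of 8 progenitor markers 1 was called, with M1 not highest (0.17), a share of 12.5% that is near that of all genes. Of 8 macrophage markers 3 were called, 2 of them with M1 highest (median 0.13), and of 10 dendritic cell markers 2, 1 of them with M1 highest (-0.22). Of 5 lymphoid markers 1 was called, with M1 not highest (-0.73), and the 3 erythroid and mast cell markers did not pass (0.02). The part of other cells in the difference between title numbers was not tested.

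Between MR-positive and MR-negative cells the S phase genes leaned lower in MR-positive cells, by at most 1.67-fold. With the population alone in the model 0 of 16 passed in either direction, and limma gave 0 at an unadjusted p under 0.05 as well. The median standard error of the S phase members was 0.52 in that fit, in which the distance of the M1 arrays counts as spread. With the title number as a block the median standard error was 0.12, and 9 of 16 fell (56.2%, against 13.6% of all genes) and 0 rose. Among the S phase members detected on all 6 arrays 7 of 12 fell, and without Cdc6, which was detected on 1 MR-positive array, 8 of 15 did. A difference in the same direction in 3 of 3 title numbers was seen for 12 of 16 downwards and 1 of 16 upwards, where 28.1% and 33.2% of all genes did so. The adjusted p-values in what follows are from the fit with the block unless stated, and ± gives the standard error.

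The helicase that opens the origins is a ring of Mcm2 to Mcm7, and 4 of its 6 subunits fell. Of these 4, Mcm4 alone fell whichever title number was left out. Mcm4 had levels of 9.21, 8.53 and 8.57 on the MR-positive arrays, against 9.87, 9.23 and 8.96 on the MR-negative arrays. It was lower in MR-positive cells for each title number, although M1 of MR-positive cells lay above M3 of MR-negative cells, so the populations overlapped (log2 difference -0.58 ± 0.11, adjusted p = 0.0087, and 0.23 without the block). Mcm5 had levels of 8.22, 5.83 and 6.33 on the MR-positive arrays, against 8.92, 6.08 and 7.11 on the MR-negative arrays (log2 difference -0.58 ± 0.13, adjusted p = 0.017, and 0.72 without the block). Its M1 arrays stood more than 1 log2 unit above the others in both populations, and within each number the MR-positive array was the lower. For Mcm6 they were 7.96, 6.34 and 6.25 on the MR-positive arrays, against 8.52, 6.55 and 7.11 on the MR-negative arrays (log2 difference -0.54 ± 0.14, adjusted p = 0.027). Mcm7, detected on 2 MR-positive and 3 MR-negative arrays, had 5.77, 4.40 and 4.99 on the MR-positive arrays, against 6.37, 4.98 and 5.35 on the MR-negative arrays (log2 difference -0.51 ± 0.11, adjusted p = 0.012). Both were likewise lower in MR-positive cells at each title number, with overlapping populations. A dimmer Mcm7 probe, at -0.37 ± 0.14, did not pass (adjusted p = 0.093). Mcm2 had 6.40, 5.19 and 5.41 on the MR-positive arrays, against 7.13, 5.03 and 5.52 on the MR-negative arrays (log2 difference -0.23 ± 0.17, adjusted p = 0.37). Its M2 pair ran the other way, and Mcm2 did not pass. Mcm3, given above, did not pass either (log2 difference -0.30 ± 0.12, adjusted p = 0.11), and its M3 pair differed by only -0.04. Cdc6, which loads the helicase onto origins, was detected on 1 MR-positive and 3 MR-negative arrays and had 5.57, 4.56 and 4.37 on the MR-positive arrays, against 6.21, 4.87 and 4.66 on the MR-negative arrays (log2 difference -0.42 ± 0.12, adjusted p = 0.036). It was lower in MR-positive cells for each number. On 2 MR-positive arrays it was not above the detection threshold, and it met the filter through its MR-negative arrays, so the size of its difference is uncertain. Without the block, leaving out the MR-negative M1 array turned Mcm5 to 0.20, Mcm6 to 0.02, Cdc6 to 0.07, Mcm2 to 0.39 and Mcm3 to 0.23, and leaving out the MR-positive M2 array turned Mcm2 to 0.01. Such a fit keeps a title number in 1 population only, so the distance between title numbers enters its difference.

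At the fork itself, Pcna did not pass (log2 difference -0.05 ± 0.11, adjusted p = 0.79), while its partner Pclaf fell, with levels of 8.03, 5.28 and 6.45 on the MR-positive arrays, against 8.56, 5.56 and 6.82 on the MR-negative arrays (log2 difference -0.39 ± 0.11, adjusted p = 0.033). Each MR-positive array of Pclaf was below its MR-negative partner by 0.28 to 0.53, far less than the distance between the M1 and M2 arrays. Uhrf1, which couples DNA methylation to replication, had 8.32, 5.80 and 6.41 on the MR-positive arrays, against 8.92, 6.50 and 7.33 on the MR-negative arrays (log2 difference -0.74 ± 0.11, adjusted p = 0.0031, and 0.61 without the block). This was the largest fall among the S phase members, and every title number showed it. Rrm1 and Rrm2 encode both subunits of ribonucleotide reductase, the enzyme that makes deoxynucleotides, and they leaned apart. Rrm1 fell, with levels of 7.55, 5.66 and 5.86 on the MR-positive arrays, against 7.75, 6.68 and 6.67 on the MR-negative arrays (log2 difference -0.68 ± 0.16, adjusted p = 0.021). Rrm2, singled out after its values were seen as the highest difference of all members, had 6.42, 5.16 and 5.11 on the MR-positive arrays, against 6.32, 4.46 and 4.80 on the MR-negative arrays (log2 difference 0.37 ± 0.14, adjusted p = 0.085). It was higher in MR-positive cells for each number and did not pass. Tk1, thymidine kinase (log2 difference -0.30 ± 0.12, adjusted p = 0.11), and Tyms, thymidylate synthase (log2 difference -0.36 ± 0.11, adjusted p = 0.055), had negative differences that did not pass. Cdk2, the kinase of S phase entry, had 9.40, 8.65 and 8.69 on the MR-positive arrays, against 9.89, 9.10 and 9.12 on the MR-negative arrays (log2 difference -0.45 ± 0.10, adjusted p = 0.015). It fell, and its partner cyclin gene Ccne1 did not pass (log2 difference -0.41 ± 0.17, adjusted p = 0.12). Of the dimmer Cdk2 probes, those at -0.44 and -0.55 also fell (adjusted p = 0.034 and 0.0094), and that at -0.24 did not pass (0.12). Without the block, Pclaf was at 0.40 lacking the MR-negative M1 array and at 0.26 lacking the MR-positive M2 array, and Pcna was at 0.01 lacking that M2 array and at 0.10 lacking the MR-negative M3 array. In these fits too a title number is kept in 1 population only, and the distance between title numbers enters the differences.

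**Figure D4:**
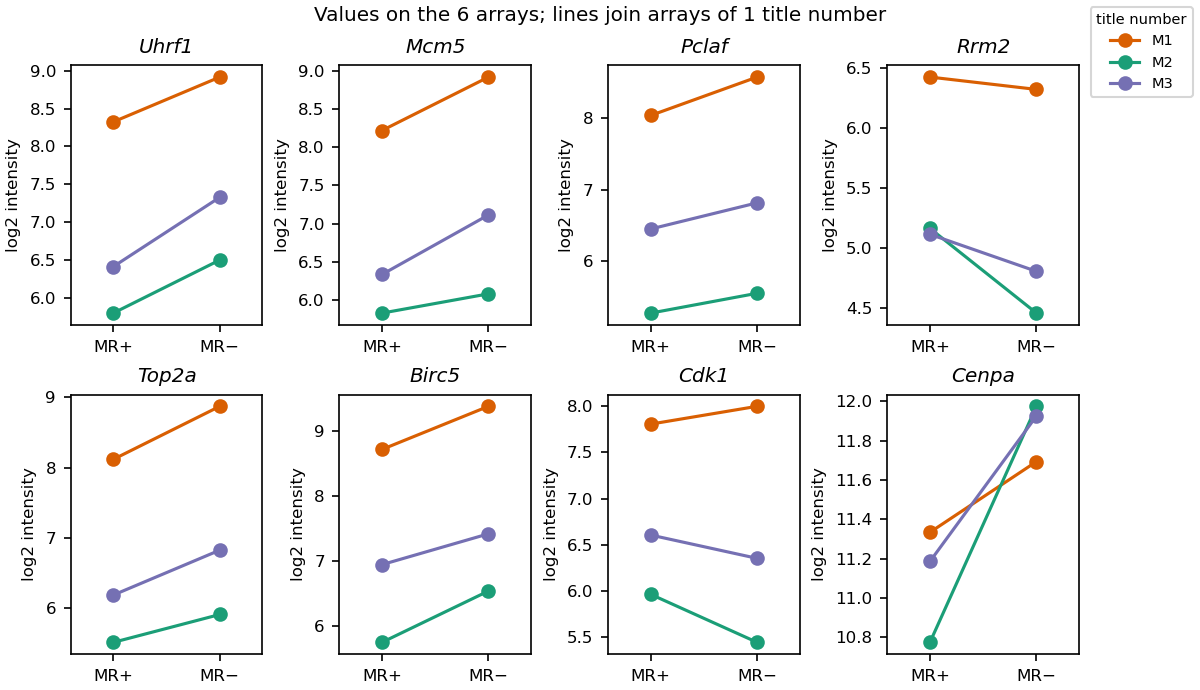
Log2 intensity of chosen members (panels) on the 3 MR-positive (left) and 3 MR-negative (right) arrays, with lines joining the arrays of 1 title number. The M1 line lies above the others in every panel but that of Cenpa. All lines of Uhrf1, Mcm5, Pclaf, Top2a, Birc5 and Cenpa run upward to the MR-negative side, and those of Rrm2 run downward.

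Of the mitotic genes, 5 of 21 fell with the block (23.8%, against 13.6% of all genes) and 0 rose. Without the block, Cenpa alone fell (limma, 1 at an unadjusted p under 0.05 as well), against 7.13% of all genes, and 0 rose. Cenpa had levels of 11.33, 10.77 and 11.19 on the MR-positive arrays, against 11.69, 11.98 and 11.93 on the MR-negative arrays. All its MR-positive arrays lay below all MR-negative arrays, the only member whose populations did not overlap (15.6% of all genes lay below and 34.6% did not overlap in either direction). Its values gave a log2 difference -0.77 ± 0.17, adjusted p = 0.027 without the block, and 0.013 with it. The unblocked adjusted p of Cenpa was 0.076 and 0.079 when the MR-positive M2 or M3 array was left out, 0.092 and 0.11 when the MR-negative M2 or M3 array was, and a dimmer Cenpa probe had -0.40 ± 0.22 (SE, adjusted p = 0.31).

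Cdc20, the activator of the anaphase-promoting complex, had 7.13, 5.17 and 5.67 on the MR-positive arrays, against 8.08, 5.69 and 6.50 on the MR-negative arrays (log2 difference -0.77 ± 0.12, adjusted p = 0.0037). Every number was lower in MR-positive cells, and its M1 arrays were the highest of both populations. Of the dimmer Cdc20 probes, that at -0.46 also fell (adjusted p = 0.035), and those at 0.02 and 0.01 did not pass (0.94 and 0.98). Birc5, whose levels are given above, fell (log2 difference -0.64 ± 0.11, adjusted p = 0.0054), and so did Top2a, with 8.12, 5.52 and 6.19 on the MR-positive arrays, against 8.87, 5.91 and 6.83 on the MR-negative arrays (log2 difference -0.60 ± 0.11, adjusted p = 0.0085). Both were lower in MR-positive cells for all 3 numbers. Cdca3, a trigger of mitotic entry, had 8.98, 6.51 and 7.66 on the MR-positive arrays, against 9.69, 6.98 and 7.96 on the MR-negative arrays (log2 difference -0.50 ± 0.12, adjusted p = 0.020). A dimmer Cdca3 probe, at -0.25 ± 0.20, did not pass (adjusted p = 0.40), and its M2 pair ran the other way. Cdk1, the kinase that drives mitotic entry, had 7.81, 5.96 and 6.61 on the MR-positive arrays, against 8.0, 5.44 and 6.35 on the MR-negative arrays (log2 difference 0.19 ± 0.15, adjusted p = 0.38). It was lower in MR-positive cells for M1 and higher for M2 and M3, and did not pass. The Cdk1 difference became -0.31 in the fit lacking the MR-positive M1 array, and -0.38 in that lacking the MR-negative M2 array. Without the block, leaving out the MR-negative M1 array turned Top2a to 0.24, Birc5 to 0.16 and Cdca3 to 0.24, and leaving out the MR-positive M2 array turned Birc5 to 0.05 and Cdca3 to 0.11. All these fits, those of Cdk1 included, keep a title number in 1 population only, so the distance between title numbers enters the differences.

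The other 15 mitotic members did not pass, and their blocked differences ran from -0.33 for Aurkb, the kinase of the passenger complex (adjusted p = 0.051), to 0.22 for Gtse1, a protein of spindle dynamics (adjusted p = 0.24). The regulators among them had differences of 0.12 for the transcription factor Foxm1, -0.21 for the kinase Plk1, -0.12 for the kinase Aurka and 0.07 for Pbk. Cdca8, a subunit of the passenger complex, and Bub1b, the checkpoint protein BubR1, were at -0.16 and -0.26. The kinesins Kif11, Kif22, Kif2c and Kifc1 were at -0.05, -0.14, 0.08 and -0.19, and the spindle proteins Nusap1, Tpx2 and Prc1 at -0.16, 0.06 and -0.23. These 15 members, each at its brightest probe, lie on both sides of 0, with standard errors of 0.10 to 0.15 under the block. A dimmer Cdca8 probe, detected on all arrays, was at -0.56 ± 0.17 and lower in MR-positive cells for each title number. It did not pass either (adjusted p = 0.0504 with the block).

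**Figure D5:**
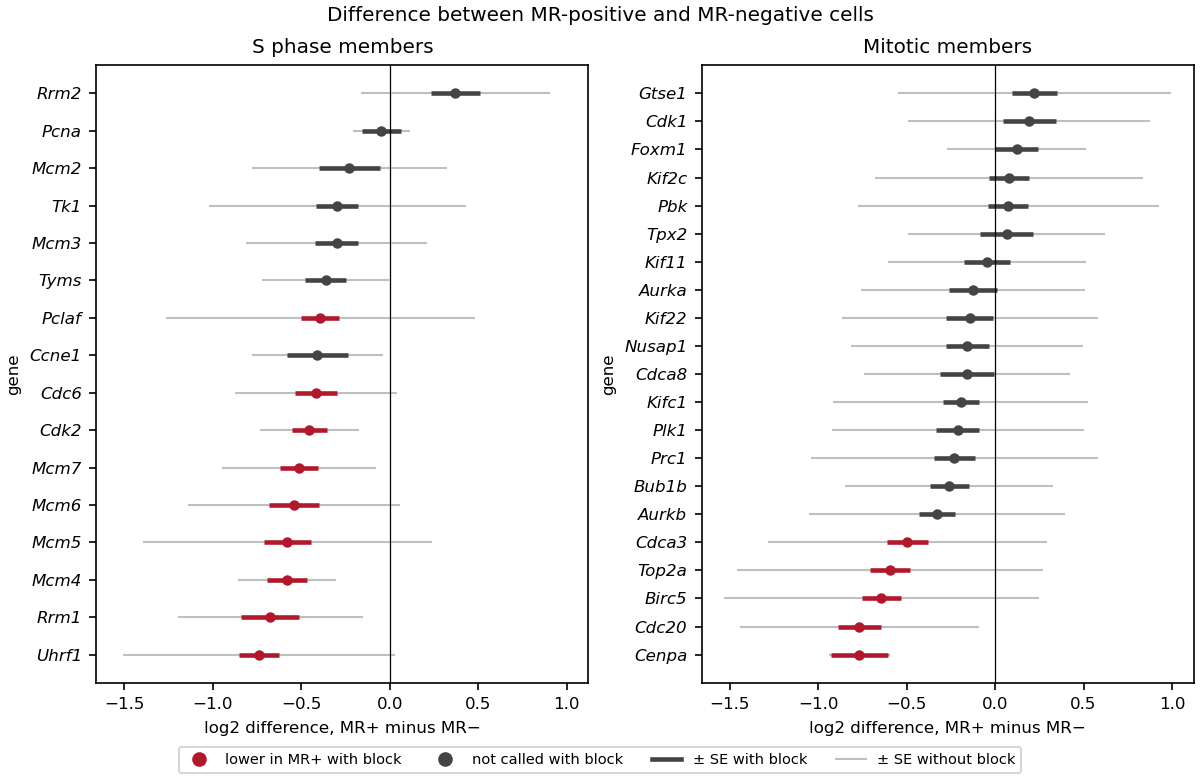
Log2 difference, MR-positive minus MR-negative (x axis), for each S phase and mitotic member (rows), with the SE of the fit with the title number as block (thick) and without it (thin). Red points mark the 9 S phase and 5 mitotic members lower in MR-positive cells with the block, and no member was higher.

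Set side by side, the S phase members had a median difference of -0.41 and the mitotic members of -0.16. The S phase medians within M1, M2 and M3 were -0.55, -0.29 and -0.37, and 2 of 16 genes were positive in each. Within the same numbers the mitotic medians were -0.37, 0.00 and -0.08, with 0, 11 and 8 of 21 genes positive. Of all 9370 genes 4958, 5057 and 4733 were positive. Thus the S phase genes leaned lower at every title number, and the mitotic genes did so as a class in M1, with both signs in M2 and M3. Still, 9 of 21 mitotic members were lower in 3 of 3 title numbers and 0 were higher, against 28.1% and 33.2% of all genes. The difference between the classes was not tested. Leaving out a single array without the block moved both medians. Each such fit keeps a title number in 1 population only, so the distance between title numbers enters its medians. Lacking the MR-negative M1 array, the S phase and mitotic medians were 0.01 and 0.50, and lacking the MR-positive M1 array they were -0.79 and -0.72. They were -0.19 and 0.24 lacking the MR-positive M2 array, and -0.65 and -0.70 lacking the MR-negative M2 array. The S phase median was -0.26 lacking the MR-positive M3 array and -0.62 lacking the MR-negative M3 array. Leaving out whole pairs with the block gave fewer calls: 5 S phase and 4 mitotic members fell without M1, 4 and 4 without M2, and 4 and 5 without M3. Mcm4, Uhrf1, Top2a, Birc5, Cdc20 and Cenpa fell in all 3 of these fits, and Cdc6 and Pclaf in none. Mcm7 fell in 2 of them, and Mcm5, Mcm6, Rrm1, Cdk2 and Cdca3 in 1.

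Genes outside the list that work beside the members are read against all genes, of which 15.3% passed without and 30% with the block, and shares near or below these are no result about a list. Of 32 measured genes of licensing and the fork, 2 fell and 1 rose without the block, and 4 fell and 2 rose with it, both below the shares of all genes. Pold1, the catalytic subunit of DNA polymerase delta, had levels of 7.46, 6.29 and 6.19 on the MR-positive arrays, against 8.12, 7.84 and 7.92 on the MR-negative arrays (log2 difference -1.31 ± 0.32, adjusted p = 0.036 without the block). Pold2, a subunit of the same enzyme, fell (log2 difference -0.77 ± 0.16, adjusted p = 0.022 without the block), and Orc5, of the origin recognition complex, rose (log2 difference 0.48 ± 0.12, adjusted p = 0.037 without the block). All MR-positive values of Pold1 and Pold2 lay below, and those of Orc5 above, the MR-negative values. The call of Pold1 held only when the MR-positive M1 array was left out, with an adjusted p of 0.065 to 0.12 for each other array, and that of Orc5 only when the MR-negative M1 array was (0.068 to 0.14 for the others, and 0.17 with equal medians). Pold2 no longer passed lacking the MR-positive M2 or M3 array (0.083 and 0.084). With the block Rpa1 and Rpa3, which coat single-stranded DNA, also fell and the chromatin assembly gene Chaf1b rose. Of 27 genes of kinetochore, spindle and cytokinesis, 0 passed without the block by limma (1 lower at an unadjusted p under 0.05). With it 5 fell, from Ncapd2 of condensin (log2 difference -0.75 ± 0.10, adjusted p = 0.0022) to the spindle protein Knstrn (log2 difference -0.44 ± 0.11, adjusted p = 0.023), and 0 rose.

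Among 18 measured drivers of the G1/S step 1 fell and 1 rose, and with the block 2 fell and 3 rose, again below the 15.3% and 30% of all genes. Ccnd2, cyclin D2, had levels of 6.34, 5.45 and 6.63 on the MR-positive arrays, against 8.64, 7.45 and 7.77 on the MR-negative arrays (log2 difference -1.81 ± 0.38, adjusted p = 0.021 without the block). Its populations did not overlap. E2f5, a repressive E2F factor, rose (log2 difference 0.68 ± 0.14, adjusted p = 0.018 without the block). E2f1, the activating factor of the S phase wave, rose with the block (log2 difference 0.93 ± 0.15, adjusted p = 0.0040, and 0.15 without), as did Cdk6, a partner of D cyclins, while Ccnd3, cyclin D3, fell. Among 17 measured brakes and exit genes 2 rose and 0 fell, and with the block 3 rose and 3 fell, near the same 15.3% and 30%. Cdkn1c, which encodes the cyclin-dependent kinase inhibitor p57, had 6.34, 7.56 and 7.12 on the MR-positive arrays, against 5.16, 5.55 and 5.27 on the MR-negative arrays (log2 difference 1.68 ± 0.29, adjusted p = 0.0099 without the block), and Btg1, an antiproliferative gene, rose (log2 difference 0.64 ± 0.15, adjusted p = 0.033 without the block). All MR-positive values of Cdkn1c lay above all MR-negative values. Ccnd2 no longer passed lacking the MR-positive M2 array (adjusted p = 0.059) or the MR-negative M3 array (0.064), and E2f5 lacking the MR-positive M2 or M3 array (0.071 and 0.069) or the MR-negative M3 array (0.081). Cdkn1c was at 0.051 lacking the MR-positive M3 array. Btg1 passed only when the MR-positive M1 or the MR-negative M2 array was left out (0.058 to 0.12 for each other array), and neither with equal medians (0.38) nor with cyclic loess (0.12). Over the 4 lists, 4 genes rose and 3 fell with all arrays. Lacking the MR-positive M2 array 1 rose and 0 fell, lacking the MR-positive M3 array 0 rose and 1 fell, lacking the MR-negative M3 array 1 rose and 1 fell, and lacking the MR-negative M1 array 8 rose.

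Markers of other cells also differed between the populations, and their part in these differences was not tested. Of all genes 8.19% rose and 7.13% fell without the block, and 16.4% and 13.6% with it. Of 7 measured of 10 granulocyte markers 1 fell without the block (Lcn2, log2 difference -2.92 ± 0.12, adjusted p = 5.1e-05 without the block) and 5 fell with it. Their summed normalized intensity, on the linear scale, ran from 3418 to 5744 on MR-positive and from 6094 to 18279 on MR-negative arrays, while Retnlg, Cxcr2 and Ly6g were not measured. S100a8, the brightest of the 7, weighs most in these sums. Its populations overlapped, and it fell with the block but not without (limma adjusted p = 0.0035 and 0.13). Mmp8 had a difference of 0.03. Of 8 measured of 10 progenitor markers Cd34, undetected on all MR-positive arrays, and Prtn3 (log2 difference -1.28 ± 0.21, adjusted p = 0.0076 without the block) fell, and with the block 4 fell and Kit rose. Cd34 no longer passed lacking any of the M2 or M3 arrays (adjusted p = 0.054 to 0.097). It met the filter through its MR-negative arrays alone, so the size of its difference is uncertain. Sums of the progenitor markers were 684 to 849 and 669 to 863, and Myb and Flt3 were not measured. Kit, the brightest of the 8, weighs most in these sums and ran opposite to most of the list. The list's median difference was -0.48, and 6 of 8 differences were negative (46.7% of all genes). For 5 of 8 all MR-positive arrays lay below all MR-negative arrays (15.6% of all genes). Of 15 lymphoid markers 5 were measured, with sums of 151 to 177 on MR-positive and 1950 to 4982 on MR-negative arrays. Here 3 fell (Cd3d, Cd3g and Klrd1) and 1 rose (Cd2), without and with the block. Cd3d was undetected on all MR-positive and Cd2 on all MR-negative arrays. Each of these 2 met the filter through 1 population alone, so the size of its difference is uncertain. Cd3e, Cd4, Cd8a, Cd79a and Ms4a1 were among those not measured. Of 10 erythroid and mast cell markers 3 were measured and 0 passed by limma, also at an unadjusted p under 0.05, with sums of 80.4 to 86.3 and 81.9 to 113. Macrophage markers had sums of 29902 to 35101 on MR-positive and 24046 to 26810 on MR-negative arrays. The sums include Mrc1, at a mean of 12.03 in MR-positive and 9.40 in MR-negative cells, so they are not independent of the sort. Of 8 measured of 10, 2 rose (Mrc1 and Mertk) and 0 fell without the block. With it 3 rose, Cd14 among them, and 1 fell (Fcgr1, log2 difference -0.63 ± 0.10, adjusted p = 0.0046).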

How the data were processed

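Per the file headers, the authors deposited for each probe and array an intensity on a linear scale and a p-value, read here as the detection p against negative controls. The smallest p-value above 0 was about 1 in 936. A normalized intensity table, made by the authors with quantile normalization, was deposited as well. No source used here names the scanner software. The values before normalization of 3 MR-positive and 3 MR-negative arrays were processed with neqc of limma 3.58.1 in R 4.3.3 (normal-exponential background, quantile normalization, offset 16, log2). Probes with a detection p under 0.05 on at least 3 of 6 arrays were kept (16686 of 45281). Of all probes 34885 had 1 gene symbol, 18 several and 10378 none. Each gene was represented by its brightest probe on average. lmFit and eBayes gave two-sided tests, adjusted by Benjamini-Hochberg over all kept probes at 0.05, with the population alone and with the title number as a block. A moderated F test across title numbers was added after the data were seen. Methods were tested on simulated data.

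The members and gene lists were chosen with earlier results of these data known. Values are given on every array for members past the threshold in either fit, at most 10 in each class, and for Top2a, Cdk1, Pcna and Mcm2 to Mcm7. From the other lists up to 4 genes that passed were named, or, failing any, the 2 of smallest p. Rrm2, Mcm3 in the order of title numbers, Kif2c and Ube2c, the 15 other mitotic members and the genes called with the block alone were named for the text after their values were seen. Alternatives were leaving out each array or title number, other scalings and offsets, other detection filters and the mean of a gene's probes. Deviations of same-numbered arrays from their population means correlated at 0.708 for M1, 0.569 for M2 and 0.275 for M3 across probes, each over 0.1, so the title numbers were taken as pairing the arrays. The M3 pair is the weakest, since MR-positive M2 with MR-negative M3 (0.382) and MR-positive M3 with MR-negative M2 (0.290) correlated more than it did. With the pairing taken, blocked values stand beside the results. Across members these correlations were 0.887, 0.880 and 0.627. The labels do not say what the numbers mean. Promoter sequences are from RefSeq (GRCm38.p6), and where a gene has several starts a match in any counts.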

Additional observations from a re-analysis of the deposited data

How the results depend on the processing

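The number of probes that differed between the populations was 2298, or 4628 with the title number as a replicate block, and 1151 to 2544 when single arrays were left out. The number of members lower in MR-positive cells was 1, and 14 with the block, 4 without both M1 arrays, 0 without a detection filter, 0 with the mean of a gene's probes and 0 to 1 without single arrays. Settings added after the data were seen, all with the block, gave 9, 8 and 9 members lower without both M1, M2 or M3 arrays, 20 with equal medians and 15 with cyclic loess. Equal medians moved the median of all genes to -0.11, against 0.02, and left 30.6% of called probes higher in MR-positive cells, against 52.2%. Relative to the median of all genes the S phase median was -0.44, and -0.42 with equal medians. No member was higher in MR-positive cells under any of these settings. Without single arrays the S phase median ran from -0.79 to 0.011 and the mitotic median from -0.72 to 0.50. Each of these fits keeps a title number in 1 population only. Whole pairs were left out as well, and the medians taken relative to that of all genes. The S phase and mitotic medians were then -0.34 and -0.07 lacking M1. They were -0.48 and -0.28 lacking M2, and -0.48 and -0.23 lacking M3. Genes of the other cell cycle lists were higher in 4 cases, and in 8 with the block, 9 without both M1 arrays, 2 with equal medians, 2 without a detection filter and 0 to 8 without single arrays. They were lower in 3 cases, and in 14 with the block, 7 without both M1 arrays, 0 without a detection filter and 0 to 4 without single arrays. The members that differed between title numbers were 35, and 0 without a detection filter, where 0 of all 19057 genes passed, and 24 to 35 without single arrays. Mrc1 stayed between 2.31 and 3.0 without single arrays. The causes of these shifts were not tested. Fits without 1 array leave 2 arrays in a population. Signal over background limits the dimmest members, of which 8 of 37 were undetected on at least 1 array.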

Other observations

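Genes outside the cell cycle lists also ranked high by their range between title numbers. They were picked with their values in view. Ccl7, a chemokine that draws monocytes, averaged 11.44 for M1, 8.72 for M2 and 9.56 for M3 over both populations (F test adjusted p = 0.0067), and its relative Ccl2 averaged 10.65 for M1, 8.04 for M2 and 8.55 for M3 (adjusted p = 0.0088). Both were highest in M1 and lowest in M2, the order of the mitotic genes. Klf2, a transcription factor of quiescent T cells, averaged 8.07 for M1, 5.77 for M2 and 6.10 for M3 (adjusted p = 0.0017), also highest in M1. Nrg1, the growth factor neuregulin, averaged 6.91 for M1, 9.46 for M2 and 8.75 for M3 (adjusted p = 0.0016), and Tnfrsf9, the costimulatory receptor 4-1BB, averaged 8.29 for M1, 10.66 for M2 and 10.19 for M3 (adjusted p = 0.0046). These 2 ran the other way, with M1 lowest.

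Of 93 probes annotated to members 57 were tested, and 52 of these had M1 highest in both populations. Of 14 members with more than 1 tested probe, 2 (Cdc20 and Tyms) had probes whose difference between the populations differed in sign. For 5 (Cdc20, Cdca3, Cdk2, Cenpa and Mcm7) the call with the block depended on the probe.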
